A study of Mus musculus with 48 samples.

Results

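Mitotic and G2 cell cycle genes are 35 genes chosen by symbol, whose products drive or carry out the passage from the end of DNA replication through cell division. All 35 were found among the 29331 genes of the deposited count table, and all 35 passed the filter on low counts, in the 36 libraries of day 7 (16544 genes tested) and in the 18 libraries of ZT21 (16101 genes tested). The table holds polyadenylated RNA of livers from male wild-type mice, 48 libraries in 16 groups of 3. LPS mice received lipopolysaccharide, a bacterial cell wall component that activates innate immune cells, continuously for 7 consecutive days, and NC mice were negative controls. Zeitgeber time (ZT) counts hours from lights on. Both arms were sampled on day 7 every 4 hours from ZT1 to ZT21, and LPS mice also on days 3, 5, 9 and 11, each time at ZT21. Whether these days count from the first or the last administration is not stated. On either count days 9 and 11 fall after the 7 days of LPS. The NC libraries used here are all of day 7, so every day of the LPS arm was set against the same 3 NC libraries of ZT21. The labels give no dose, route, strain or age, and they number biological replicates without naming animals, so the spread that p-values measure is that between libraries.

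Most hepatocytes of an adult liver rest outside the cell cycle and can re-enter it after injury, while immune and endothelial cells of the organ can also divide. In a dividing cell the kinase Cdk1, bound first to cyclin A2 and then to the B cyclins, drives entry into mitosis. Its genes and those of the spindle and cytokinesis are transcribed in G2 under B-MYB (Mybl2), FOXM1 and the DREAM and MuvB complexes, and their mRNAs are scarce in resting cells. MuvB complexes bind a short promoter element called the cell cycle genes homology region (CHR), often placed near CCAAT boxes, which NF-Y binds.

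The promoters of the members share letters that the choice of members did not use. RefSeq promoters of GRCm38.p6, from 250 bases before to 50 bases after the gene start, were available for 29 of the 35. Gtse1, Prc1 and Ect2 had 2 promoters listed, of which only the first listed was searched. The 6 below were chosen to show Cdk1 and a B cyclin, the mitotic exit gene Cdc20, the kinase gene Plk1, a gene with many motif copies (Top2a) and the gene with the largest averaged change (Gtse1). Capitals mark CHR letters (TTTGAA or TTCGAA) and CCAAT, each on either strand, so that TTCAAA is TTTGAA and ATTGG is CCAAT read from the other strand. The spans are chr10:69352863-69353162 (minus strand) for Cdk1, chr9:70421505-70421804 (minus) for Ccnb2, chr4:118437294-118437593 (minus) for Cdc20, chr7:122159185-122159484 (plus) for Plk1, chr11:99024140-99024439 (minus) for Top2a and chr15:85859457-85859756 (plus) for Gtse1.
Cdk1: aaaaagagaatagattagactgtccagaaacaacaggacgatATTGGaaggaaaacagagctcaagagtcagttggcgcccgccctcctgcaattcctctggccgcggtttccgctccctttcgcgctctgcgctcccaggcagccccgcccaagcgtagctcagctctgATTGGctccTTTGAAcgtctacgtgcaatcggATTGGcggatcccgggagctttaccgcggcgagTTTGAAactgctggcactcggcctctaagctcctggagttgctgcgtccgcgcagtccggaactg
Ccnb2: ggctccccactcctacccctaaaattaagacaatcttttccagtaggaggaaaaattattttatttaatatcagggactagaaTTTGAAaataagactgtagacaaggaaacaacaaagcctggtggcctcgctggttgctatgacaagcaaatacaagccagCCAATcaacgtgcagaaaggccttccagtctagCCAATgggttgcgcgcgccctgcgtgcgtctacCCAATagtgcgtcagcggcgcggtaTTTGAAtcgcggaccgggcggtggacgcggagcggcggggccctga
Cdc20: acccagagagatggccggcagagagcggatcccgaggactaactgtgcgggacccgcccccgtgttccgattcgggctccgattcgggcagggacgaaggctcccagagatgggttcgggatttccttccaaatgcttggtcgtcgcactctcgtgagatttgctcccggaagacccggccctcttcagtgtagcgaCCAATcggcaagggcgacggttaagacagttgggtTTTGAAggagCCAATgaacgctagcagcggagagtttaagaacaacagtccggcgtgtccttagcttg
Plk1: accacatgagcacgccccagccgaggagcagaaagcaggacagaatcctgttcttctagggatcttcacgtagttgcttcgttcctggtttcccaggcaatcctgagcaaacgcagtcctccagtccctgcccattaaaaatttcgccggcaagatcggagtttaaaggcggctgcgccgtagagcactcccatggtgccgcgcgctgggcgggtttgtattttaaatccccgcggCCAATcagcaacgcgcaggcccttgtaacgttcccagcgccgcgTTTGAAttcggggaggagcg
Top2a: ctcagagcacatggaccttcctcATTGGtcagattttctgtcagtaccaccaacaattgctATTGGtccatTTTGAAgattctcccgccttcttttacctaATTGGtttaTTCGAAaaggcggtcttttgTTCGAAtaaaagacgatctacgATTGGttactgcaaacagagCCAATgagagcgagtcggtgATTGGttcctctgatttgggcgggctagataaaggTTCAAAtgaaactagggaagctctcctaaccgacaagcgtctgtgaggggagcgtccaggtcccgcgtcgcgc
Gtse1: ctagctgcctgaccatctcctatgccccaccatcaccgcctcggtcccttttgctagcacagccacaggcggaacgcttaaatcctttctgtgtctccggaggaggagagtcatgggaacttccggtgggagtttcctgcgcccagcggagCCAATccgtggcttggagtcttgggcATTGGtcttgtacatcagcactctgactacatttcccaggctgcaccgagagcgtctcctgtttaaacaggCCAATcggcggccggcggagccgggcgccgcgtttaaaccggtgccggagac

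CHR letters were present in 22 of the 29 promoters (75.9%), against 14.4% of the 11648 promoters of genes tested on day 7 and 19.4% of all 27025 promoters. CCAAT was present in 24 (82.8%, against 38.8% of the tested genes), and both together in 20 (69.0%, against 6.15%). In all 22 a CHR lay within 100 bases before or 50 after the start, where 5.55% of the tested genes had one. Among 47 promoters from a list of other mitotic genes, 70.2% held CHR letters, 66.0% CCAAT and 51.1% both. In 61.7% of them a CHR lay in that span near the start, so these letters were not particular to the members. A search for E2F letters (TTTGGCGC, TTTCCCGC, TTTCGCGC or TTTGGCGG, either strand) found them in 1 member promoter, that of Cdk1 (3.45%, against 4.14% of the tested genes), and in 14 of 32 promoters of G1/S and DNA replication genes (43.8%), of which 15.6% held CHR letters. Of the 7 promoters without CHR letters, those of Ccnb1, Gtse1, Nek2 and Cenpe held CCAAT, and those of Birc5, Mybl2 and Nusap1 held no letters of the 3 kinds. These matches describe letters in a window and are not binding sites, and absence of a match says only that these letters were not found there.

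**Figure D1:**
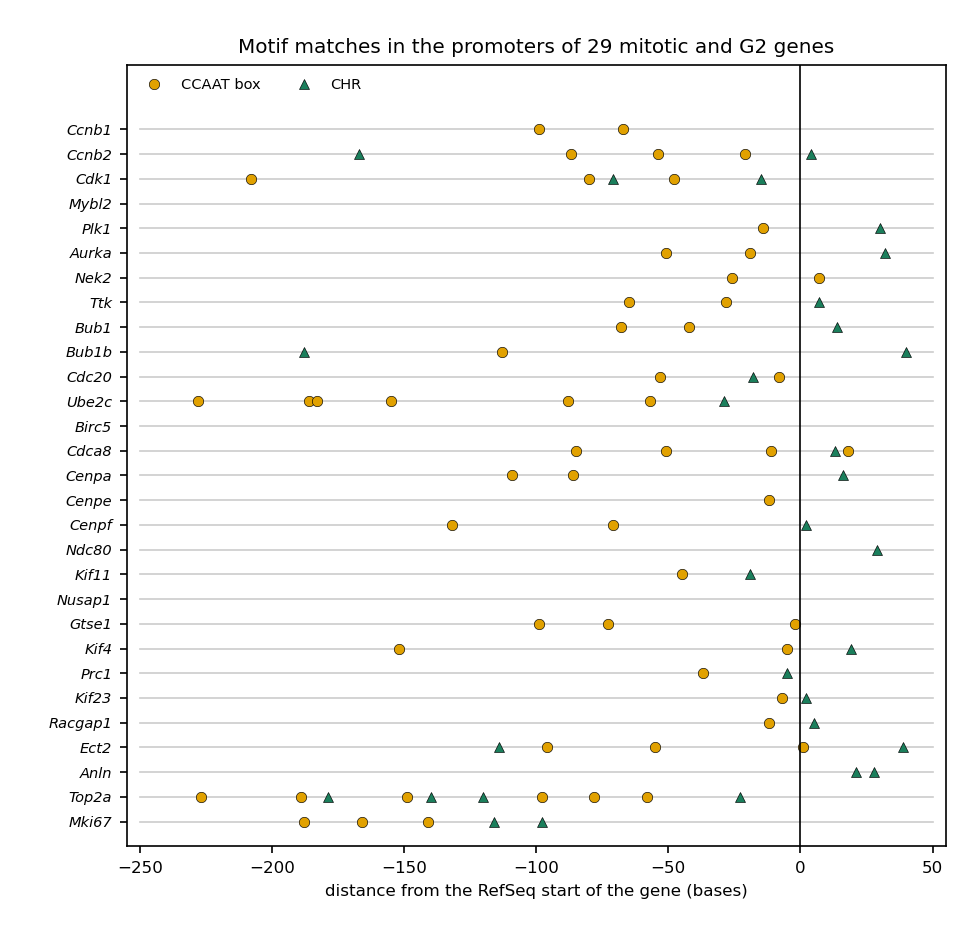
Positions of CHR (triangles) and CCAAT (circles) letters in the promoters of 29 members, in bases from the RefSeq start of each gene (0, vertical line), with 1 line per gene ordered by role. CHR letters lie within 100 bases before or 50 after the start in 22 genes, and Birc5, Mybl2 and Nusap1 have neither motif.

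Library totals ran from 28.2 M to 45.3 M counts (M, counts in units of 1000000), so a level of 1 CPM (counts per 1000000, scaled with TMM factors) stood for 27.5 to 52.7 reads, which limits the precision of the scarcest members. In a principal component analysis of day 7, 4 LPS libraries stood apart on the leading component (13.2% of the variance), at 79.1 to 101 against at most 51.7 in the others: ZT1 replicate 2, ZT13 replicate 2 and ZT21 replicates 1 and 3. The same 4 stood apart when the members and the other cell cycle lists used here were left out of the component (69.5 to 104, against at most 52.6). Cell cycle genes outside these lists stayed in. Counts of called genes that change without them are given both ways for the members and, for the averaged effect, ZT21 and the step from day 7 to day 9, for the other cell cycle lists. No 2 libraries of a group agreed within sampling noise.

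The members were scarce in control liver. Per kilobase of exon, the median NC level was highest for Cenpa (1.07 CPM per kb), the centromeric histone, for Cdc20 (0.838), which activates the anaphase-promoting complex, and for Ccnb2 (0.676), and lowest for Cenpf (0.0276), a kinetochore protein. The genes lie on 16 chromosomes of GRCm38 in the GENCODE M21 annotation. Among them are Mki67 at chr7:135689784-135716361, Cdk1 at chr10:69335146-69352938, Ccnb1 at chr13:100778650-100786570 and Gtse1 at chr15:85859745-85876573. For 11 members an exon overlaps an exon of a gene on the other strand (Ccna2 with Exosc9 and Cdc20 with Elovl1, for example), and for Top2a and Foxm1 an exon overlaps a gene on the same strand. The libraries keep strand, but the strand setting of the counting is not stated, so the levels of these 13 may hold reads of their neighbours.

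Across single libraries the members moved as a block, and few libraries carried most of the signal. The summed level of the 35 genes was 22.3 to 206 CPM in the 18 NC libraries (median 43.0) and 29.1 to 312 CPM in the 18 LPS libraries of day 7 (median 72.5). The highest were LPS ZT21 replicates 1 (312) and 3 (279), LPS ZT5 replicate 3 (206), NC ZT9 replicate 1 (206), LPS ZT13 replicate 2 (188) and LPS ZT5 replicate 2 (146). Of these 6, 1 was a control library, and replicate 2 of the LPS ZT21 group stood at 45.6 CPM, close to the NC median. LPS ZT21 replicate 1 held the highest value of all 48 libraries for 20 of the 35 members, NC ZT9 replicate 1 for 6 and LPS ZT21 replicate 3 for 5.

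**Figure D2:**
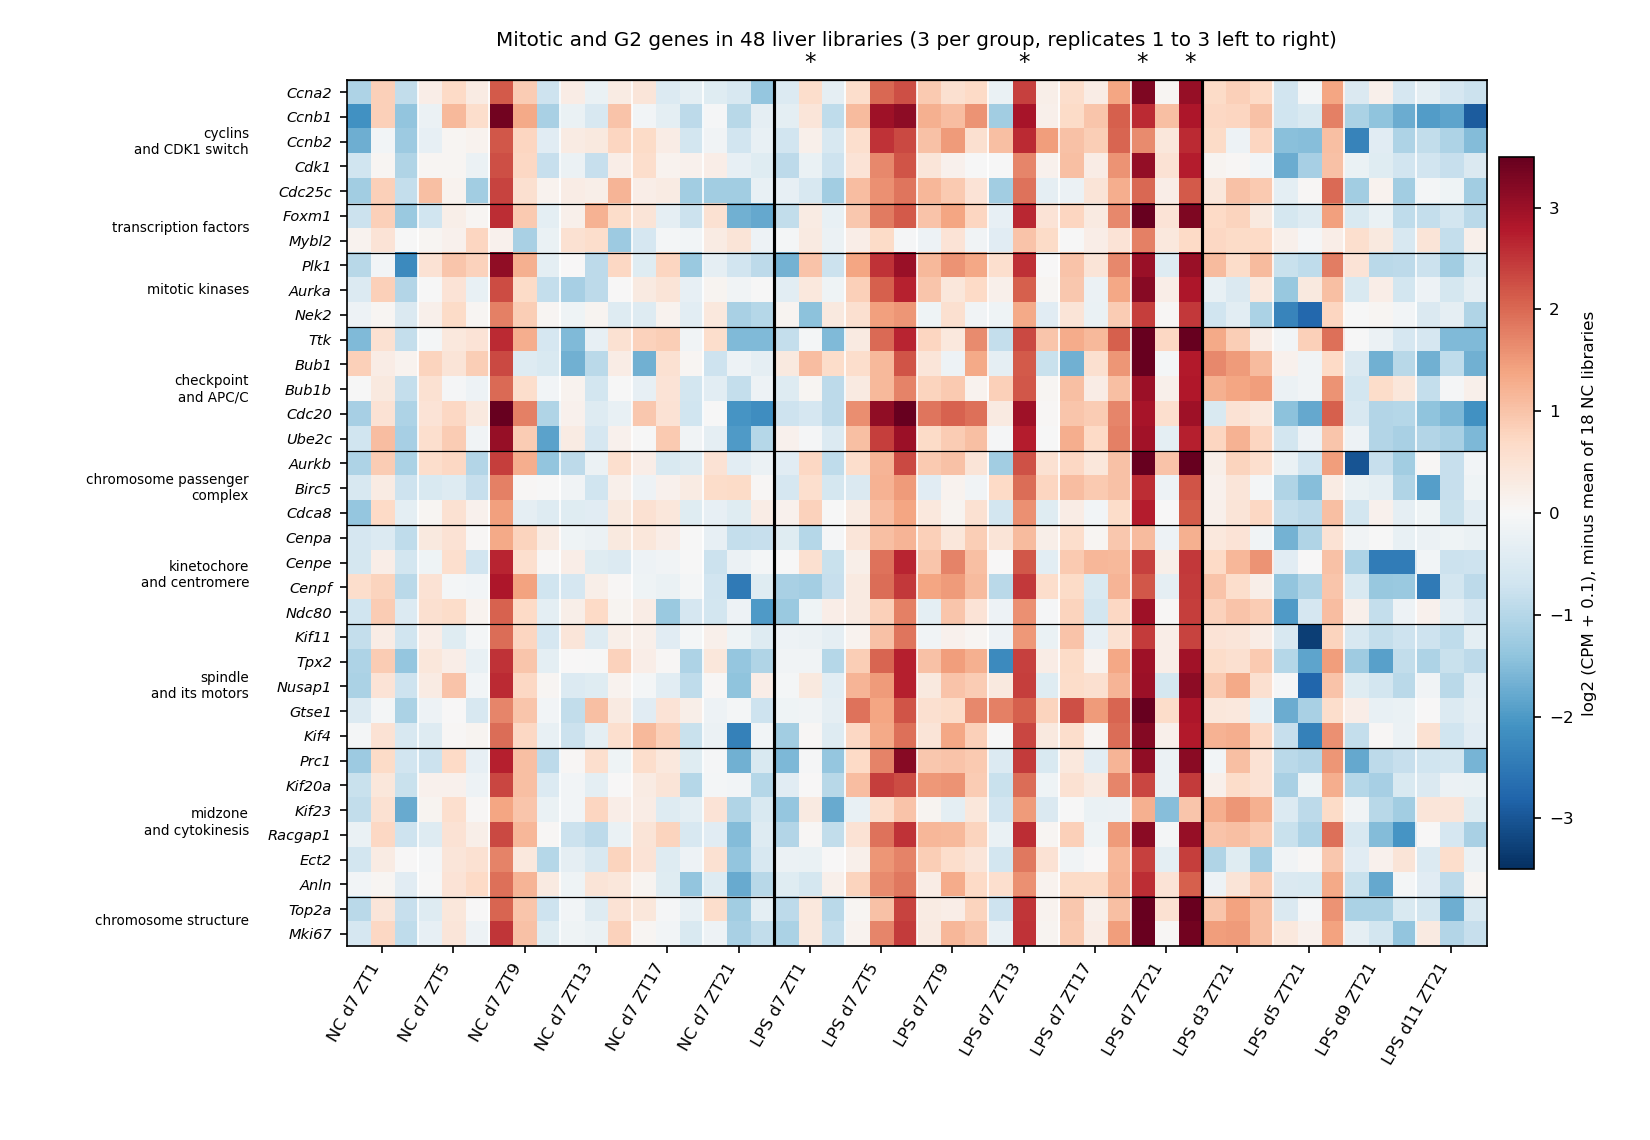
Level of each member (rows, by role) in each of 48 libraries (columns, 3 per group), as log2 of CPM + 0.1 minus the mean of the 18 NC libraries, red above and blue below. Asterisks mark the 4 libraries apart on the first principal component. Whole columns are red in LPS ZT21 replicates 1 and 3, LPS ZT5 replicates 2 and 3, LPS ZT13 replicate 2 and NC ZT9 replicate 1.

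**Figure D3:**
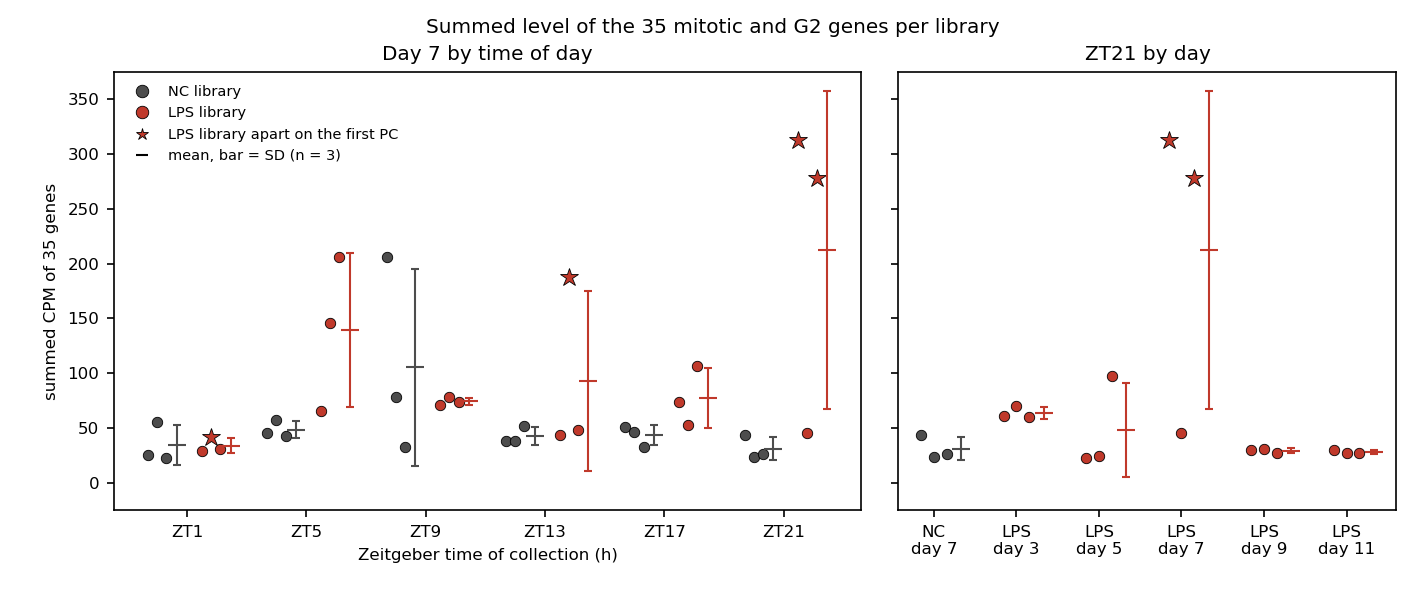
Summed CPM of the 35 members in each library by group, day 7 at left and ZT21 at right, with the mean and SD of 3 libraries as bars, and stars for the 4 libraries apart on the first principal component. LPS ZT21 ranged from 45.6 to 312 CPM and NC ZT9 from 32.6 to 206 CPM.

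Averaged over the 6 times of day of day 7, LPS livers had a positive log2 change in every member (52.5% of all genes had one). Of the 35, 20 rose in the quasi-likelihood test of edgeR (Benjamini-Hochberg adjusted p under 0.05), against a background of 5.53% of all genes called higher. None fell (background 3.81%). The median log2 change of the members was 1.09, and that of all genes tested 0.01. Without the 4 libraries apart only Gtse1 passed, the median log2 change was 0.36, and 2.99% of all genes were called in either direction. Leaving out only LPS ZT13 replicate 2 left 8 members called, and leaving out LPS ZT21 replicate 1 left 13. Those fits called 949 and 1063 genes in all, against 1545 with every library, and the member medians were 0.86 and 1.01. In bulk liver RNA more cells in mitosis and more mRNA per such cell cannot be told apart.

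Cyclins and the Cdk1 switch are the core of the list. Ccnb2, a B-type cyclin, ranged from 0.252 to 5.02 CPM in NC (median 1.03) and from 0.617 to 6.92 CPM in LPS livers (median 2.26). It was above the NC mean of its ZT in 16 of 18 LPS libraries, and its averaged log2 change was 1.28 ± 0.25 (SE, adjusted p = 0.00326), or 0.87 without the 4 libraries (adjusted p = 0.0615). Ccnb1, the main mitotic cyclin, ranged from 0.072 to 7.78 CPM in NC (median 0.549) and from 0.222 to 6.43 CPM in LPS (median 1.51). Here the highest library of all was a control, NC ZT9 replicate 1, and the log2 change was 1.32 ± 0.40 (adjusted p = 0.0387). Ccna2, which acts in S phase and G2, ran from 0.571 to 7.54 CPM in NC (median 1.64) and from 1.14 to 16.6 CPM in LPS (median 2.56). Cdk1 itself ran from 0.875 to 9.56 CPM in NC (median 2.03) and from 0.987 to 16.9 CPM in LPS (median 2.68). Both rose on average, by 1.13 ± 0.30 for Ccna2 (adjusted p = 0.0212) and 0.85 ± 0.25 for Cdk1 (adjusted p = 0.0358). In both genes the highest LPS libraries exceeded every NC library, and the lower parts of the ranges overlapped. Cdc25c, the phosphatase that activates Cdk1, did not pass (0.93 ± 0.52, adjusted p = 0.258).

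Of the 2 transcription factor genes of the G2 programme, Foxm1 passed and Mybl2 did not, and the difference between their changes was not tested. Foxm1 ranged from 0.19 to 5.97 CPM in NC (median 1.01) and from 0.463 to 13.7 CPM in LPS (median 1.73), and rose by 1.21 ± 0.35 (adjusted p = 0.0306). Mybl2 ranged from 0.216 to 1.17 CPM in NC (median 0.709) and from 0.476 to 2.5 CPM in LPS (median 0.816). The highest LPS value was that of ZT21 replicate 1, and the change was 0.36 ± 0.19 (adjusted p = 0.232).

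Among the mitotic kinases, Plk1, which acts from mitotic entry to cytokinesis, ranged from 0.0937 to 7.66 CPM in NC (median 0.689) and from 0.185 to 7.28 CPM in LPS (median 2.04). It rose by 1.38 ± 0.37 (adjusted p = 0.0214), and Aurka, the centrosomal Aurora kinase, by 1.13 ± 0.30 (adjusted p = 0.0186). Aurkb, the Aurora kinase of the chromosome passenger complex, ranged from 0.213 to 4.23 CPM in NC (median 0.607) and from 0.254 to 11.3 CPM in LPS (median 1.35). Its change of 1.09 ± 0.36 lay just past the threshold (adjusted p = 0.0517), as did those of the ubiquitin-conjugating enzyme gene Ube2c (1.16 ± 0.37, adjusted p = 0.0502) and the spindle assembly factor gene Tpx2 (1.10 ± 0.36, adjusted p = 0.0518). Birc5 (survivin), of the same complex as Aurkb, rose by 0.80 ± 0.23 (adjusted p = 0.0304), while Cdca8 (0.69) and the centrosomal kinase gene Nek2 (0.64) did not pass.

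Spindle checkpoint and kinetochore genes spread over most of the range of changes. Cdc20 ranged from 0.254 to 17.8 CPM in NC (median 1.57) and from 0.741 to 19.6 CPM in LPS (median 4.97), and rose by 1.39 ± 0.36 (adjusted p = 0.017). The checkpoint gene Bub1b rose by 0.99 ± 0.25 (adjusted p = 0.0161), Cenpe, a kinetochore motor, by 1.28 ± 0.31 (adjusted p = 0.0116) and Cenpa by 0.53 ± 0.13 (adjusted p = 0.0139). Ttk had the second largest change of the list (1.45 ± 0.51) and Bub1 one of 1.30 ± 0.47, and neither passed (adjusted p = 0.0654 and 0.0748). Both were scarce, with a median of 0.226 CPM for Ttk and 0.242 CPM for Bub1 in NC livers. Cenpf (0.92) and Ndc80 (0.79) did not pass either.

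Gtse1, a microtubule-binding protein of G2 and mitosis, had the largest averaged change of the 35. It ranged from 0.312 to 2.82 CPM in NC (median 0.739) and from 0.617 to 12.3 CPM in LPS (median 2.6), and was above the NC mean of its ZT in 16 of 18 LPS libraries. The log2 change was 1.55 ± 0.24 (adjusted p = 0.000532), it passed with any single library left out, and it was 1.10 without the 4 libraries apart (adjusted p = 0.0057). Among the other spindle genes Nusap1 (1.21) and Kif4 (1.11) rose and Kif11 (0.62, adjusted p = 0.0896), the motor that separates spindle poles, did not pass. Of the midzone and cytokinesis genes Racgap1 (1.17), Kif20a (1.06) and Anln (0.99) rose, and Prc1 (0.96), Ect2 (0.75) and Kif23 (0.06) did not pass.

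Kif23, whose protein pairs with that of Racgap1 in the central spindle, was the member least like the rest. It ranged from 0.187 to 2.42 CPM in NC (median 0.923) and from 0.185 to 2.64 CPM in LPS (median 0.803). The groups overlapped throughout, the adjusted p was 0.93, and without the 4 libraries the log2 change was -0.77 (adjusted p = 0.10).

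Markers often used for proliferation gave the same picture of a few high libraries. Mki67 (Ki-67) ranged from 0.934 to 12.7 CPM in NC (median 1.89) and from 0.956 to 24.9 CPM in LPS livers (median 3.5), with a log2 change of 1.14 ± 0.33 (adjusted p = 0.0309). Top2a, the DNA topoisomerase that untangles replicated chromosomes, ranged from 0.747 to 7.96 CPM in NC (median 1.79) and from 0.926 to 24.7 CPM in LPS (median 2.62), with a change of 1.01 ± 0.32 (adjusted p = 0.0484). Without the 4 libraries the changes were 0.29 for Mki67 and 0.21 for Top2a, and neither passed.

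**Figure D4:**
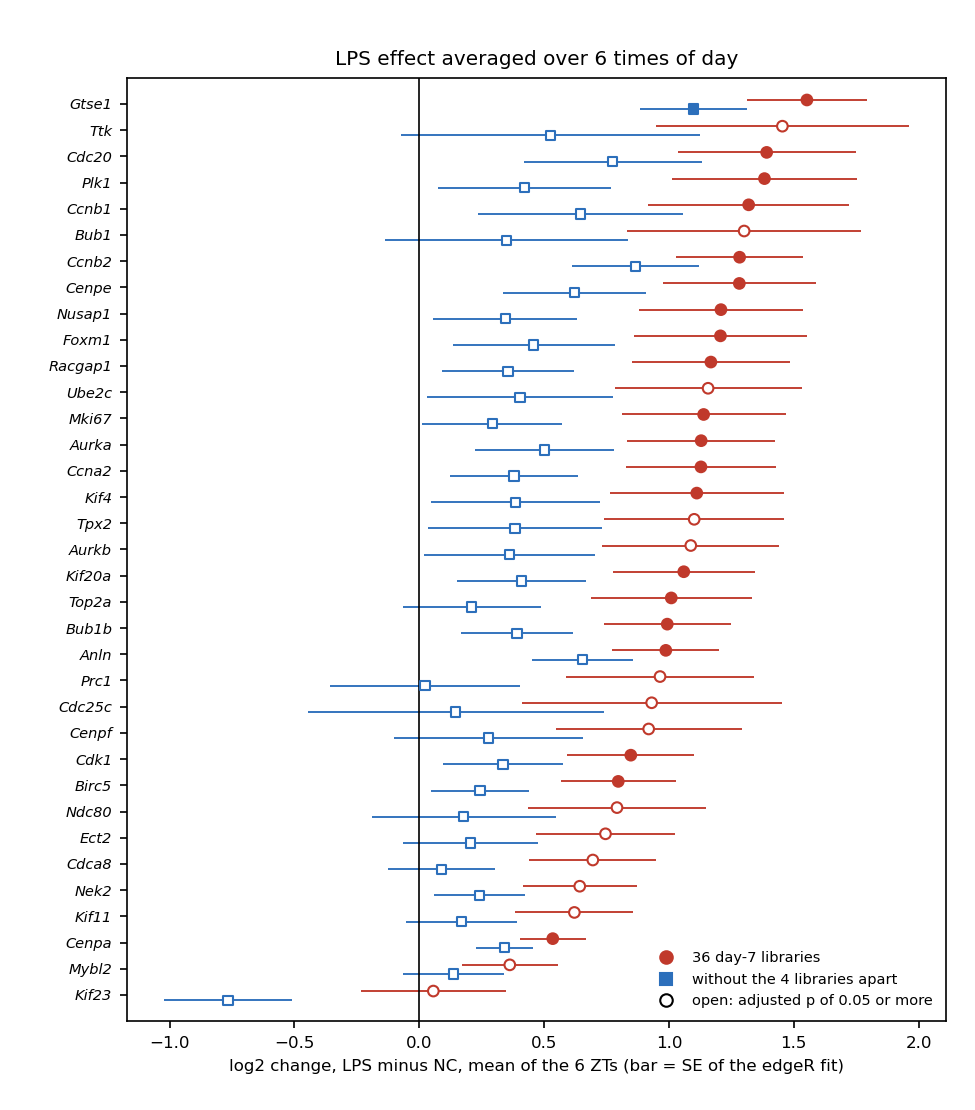
Log2 change of each member, LPS minus NC averaged over 6 times of day, with the SE of the fit, from all 36 day-7 libraries (circles) and without the 4 libraries apart (squares), filled where the adjusted p was under 0.05. Filled circles number 20 and filled squares 1 (Gtse1), and 34 of the 35 squares lie above 0.

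Taken ZT by ZT, the members were called only at ZT21, where 30 of 35 rose (background 5.52%). At the other 5 times, ZT1 through ZT17, edgeR's quasi-likelihood test called 0. Before adjustment, 0, 18, 0, 8 and 3 members were higher at p under 0.05 in the order of the times, against 8.12%, 3.81%, 5.95%, 12% and 4.45% of all genes. By DESeq2 the number was 1 at ZT5, 1 at ZT13 and 0 at the other 3. The share of all genes called higher at those times was 0.314%, 0.0121%, 0.314%, 1.85% and 0%. The median log2 change of the members was -0.10 at ZT1, 1.72 at ZT5, -0.51 at ZT9, 1.32 at ZT13, 0.98 at ZT17 and 3.25 at ZT21.

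At ZT21 Mki67 stood at 1.89, 0.934 and 1.14 CPM in NC and at 24.9, 2.23 and 23.5 CPM in LPS replicates 1, 2 and 3. Foxm1 stood at 1.35, 0.218 and 0.19 CPM in NC and at 13.7, 1.32 and 9.62 CPM in LPS. In LPS replicates 1 and 3, the libraries apart, both genes were several times above every NC library, and in replicate 2 Mki67 was just above and Foxm1 just below the highest NC library. The changes were 3.69 ± 0.86 for Mki67 (adjusted p = 0.0109) and 3.82 ± 0.91 for Foxm1 (adjusted p = 0.0116). Ttk had the largest (4.74 ± 1.25, adjusted p = 0.0192), with an NC value of 0 in replicates 2 and 3, and without NC replicate 1, which leaves NC at 0, the fitted value was 9.70, so its size is poorly fixed. Cdc25c came next (4.24 ± 1.40, adjusted p = 0.0541) with only 3 counts in all of NC, against 72 in LPS, a ratio of 22 with an exact counting interval of 7.22 to 109. Cenpa (1.52), Birc5 (1.52), Kif23 (0.97) and Mybl2 (0.96) changed least, and of these Cenpa passed. Besides Cdc25c, Birc5, Kif23 and Mybl2, Ccnb1 did not pass (3.00 ± 1.02, adjusted p = 0.0645).

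All 3 LPS libraries lay above all 3 NC libraries in 21 of the 35 members at ZT21, against 12.5% of all genes. With the 4 libraries apart left out, only 1 LPS library remains at ZT21, whose spread is then assumed to be that of the other groups. In that fit 2 of 17431 genes were called and 0 of the members (1 at an unadjusted p under 0.05, DESeq2 not run), and the median change of the members was 0.70. Within the 6 libraries of ZT21 alone 0 passed too. Leaving out NC replicate 2 left 2 called, NC replicate 3 left 7, NC replicate 1 left 19, LPS replicate 1 left 2 and LPS replicate 3 left 4. In that order these fits called 197, 615, 1010, 64 and 259 genes in all, against 1473 with every library. The member medians were 2.87, 3.21, 3.55, 2.77 and 2.87, against 3.25, so fewer calls came with changes of similar size.

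At ZT5 the signal came from libraries that did not stand apart. Cdc20 stood at 2.09, 2.52 and 1.93 CPM in NC and at 4.82, 13.4 and 19.6 CPM in LPS. Gtse1 stood at 0.698, 0.8 and 0.512 CPM in NC and at 3.25, 2.23 and 3.98 CPM in LPS. For these 2 genes no LPS library reached down to the NC libraries, and the same held for 15 of the 35 members, against 9.9% of all genes. The changes were 2.53 ± 0.86 for Cdc20 (adjusted p = 0.423), 2.31 ± 0.93 for Prc1, a cross-linker of the spindle midzone (adjusted p = 0.544), and 2.23 ± 0.59 for Gtse1 (adjusted p = 0.259), and the smallest were Cenpa (0.62), Kif23 (0.31) and Mybl2 (-0.05).

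At ZT9 the direction was negative in 33 of 35 members, none of which passed, and positive in 2 (46.6% of all genes were positive). Cdk1 stood at 9.56, 3.25 and 1.07 CPM in NC and at 2.63, 2.15 and 1.93 CPM in LPS, a change of -1.05 ± 0.61 (adjusted p = 0.534). The mean of NC rested on replicate 1, and the 3 LPS libraries lay between the other NC libraries. At ZT13 the median change of 1.32 was -0.0033 without the 1 library apart. At ZT17 all 3 LPS libraries were above all NC libraries for 11 members, against 10.1% of genes, with the largest changes in Ccnb1 (1.98), Gtse1 (1.93) and Anln (1.44).

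The test of the difference between ZTs itself, the interaction of LPS with ZT, was passed by 1 member (background 1.7%), Anln, which anchors the contractile ring (adjusted p = 0.0441). Its log2 change was 3.25 ± 0.56 at ZT21 and 1.44 at ZT17. DESeq2 called 15, for which the 1.7% is not the background. Leaving out single libraries gave 0 to 12 members. The 12 came without LPS ZT21 replicate 2, where 1429 of 16975 genes were called, against 282 of 16544 with every library.

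Within control livers 3 of 35 members varied with time of day, a smaller share than the 18.9% of all genes. The median level of the members at ZT9 was 4.26, 1.56 and 0.57 times the NC mean in replicates 1, 2 and 3, so replicate 1 set the height of that time. Cenpa averaged 3.95 ± 0.57 CPM (SD, n = 3) at ZT1, 7.71 ± 1.21 at ZT5, 11.4 ± 4.15 at ZT9, 6.25 ± 1.39 at ZT13, 7.22 ± 1.05 at ZT17 and 3.99 ± 0.902 at ZT21. The 3 called were Cenpa (adjusted p = 0.0051), Anln (adjusted p = 0.0112) and Cdc20 (adjusted p = 0.0257). With the 4 LPS libraries out of the fit, which changes its spread but no NC value, the number was 13 (background 29.2%), and it was 1 without NC ZT9 replicate 1, 9 without NC ZT9 replicate 3 and 7 without LPS ZT13 replicate 2. In LPS livers 19 members varied with time of day (background 25.3%), 12 without the 4 libraries (background 18.3%). Single libraries decided that number too: it was 2 without ZT21 replicate 1, 5 without ZT21 replicate 3, 9 without ZT1 replicate 1 and 10 without ZT1 replicate 3. Gtse1 led them (adjusted p = 0.0035), with means of 0.685 ± 0.0596 CPM at ZT1, 3.15 ± 0.881 at ZT5, 1.76 ± 0.882 at ZT9, 2.67 ± 1.15 at ZT13, 3.39 ± 0.886 at ZT17 and 6.58 ± 5.49 at ZT21.

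The 6 libraries with the highest sums differed in the level of the G1/S genes beside that of the members. This comparison was made after the values were seen and is given without a test. In LPS ZT21 replicates 1 and 3 the members were high together with the genes of G1/S and DNA replication, whose median level was 7.11 and 4.92 times the NC mean, beside 6.43 and 5.46 times for the members. In LPS ZT13 replicate 2 the figures were 2.20 and 4.25. In LPS ZT5 replicate 3 and NC ZT9 replicate 1 the members stood at 4.25 and 4.26 times the NC mean and the G1/S genes at only 1.24 and 1.27, and in LPS ZT5 replicate 2 at 2.68 and 0.94. Single members were compared between LPS ZT5 replicate 3 with NC ZT9 replicate 1 and the 2 ZT21 libraries. LPS ZT13 replicate 2 and LPS ZT5 replicate 2 were left out. Cdc20 (18.7 against 11.97 CPM), Ccnb1 (7.10 against 4.88), Cenpf (3.44 against 2.68), Cenpe (3.33 against 2.82) and Ube2c (10.2 against 8.94) were higher on average in LPS ZT5 replicate 3 and NC ZT9 replicate 1 than in the 2 ZT21 libraries. Gtse1 (3.40 against 9.23), Mybl2 (0.688 against 1.81), Ttk (1.71 against 4.50), Top2a (9.07 against 23.2) and Aurkb (4.09 against 10.2) were the members most in favour of the ZT21 pair. In all, 10 members were higher in the first pair and 25 in the second. The second pair also had the higher median member levels (6.43 and 5.46 against 4.25 and 4.26 times the NC mean).

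**Figure D5:**
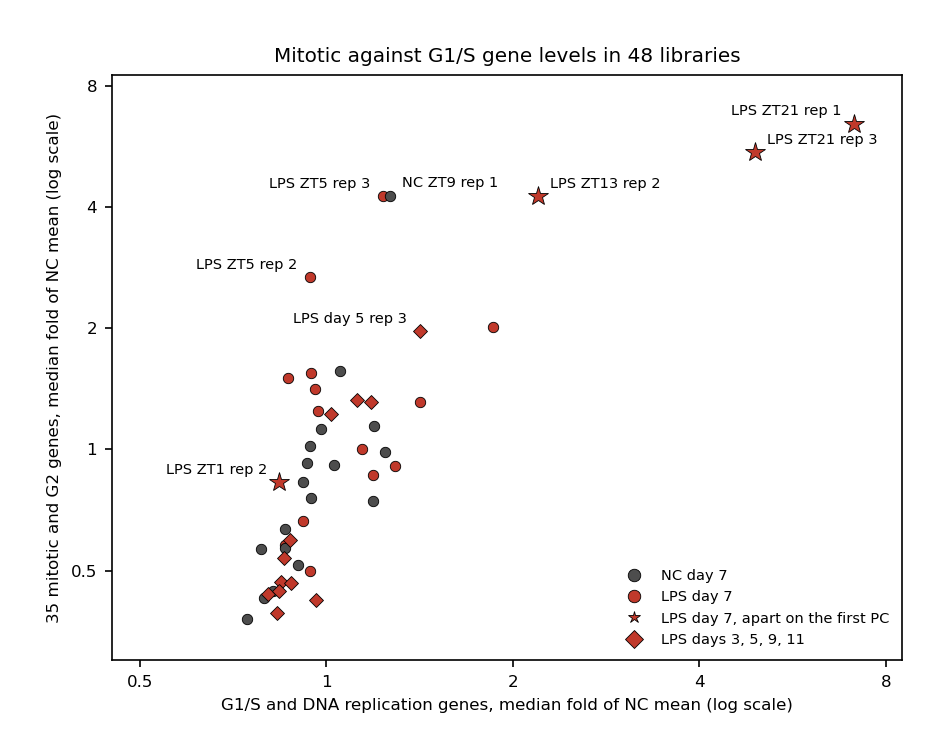
Median level of the 35 members against that of 42 G1/S and DNA replication genes in each library, as fold of the mean of the 18 NC libraries on log scales, with symbols for arm, day and the 4 libraries apart. LPS ZT21 replicates 1 and 3 are high on both axes, and LPS ZT5 replicate 3 and NC ZT9 replicate 1 are high for the members (4.25 and 4.26) and near 1 for the G1/S genes (1.24 and 1.27).

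At ZT21 the course over days was read against the same 3 NC libraries for each of the 5 days of the LPS arm, so the values stand side by side and are not independent. The summed level of the members was 43.1, 23.8 and 26.3 CPM in NC. It was 61.1, 69.7 and 59.6 CPM on day 3, 22.1, 24.0 and 97.4 CPM on day 5 and 312, 45.6 and 279 CPM on day 7. On day 9 it was 30.0, 30.8 and 26.7 CPM and on day 11 30.1, 27.1 and 26.9 CPM. Day 3 was even and above NC, day 5 and day 7 were split between libraries, and days 9 and 11 lay within the NC range.

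On day 3, 2 members rose, Bub1b by 1.95 (adjusted p = 0.047) and Mki67 by 2.09 (adjusted p = 0.0481). At 5.71% of the members, this was a smaller share than the 10.3% of all genes called higher. Mki67 stood at 6.13, 6.26 and 4.61 CPM on day 3, and Bub1b, the checkpoint protein that restrains Cdc20, at 2.03, 2.23 and 2.34 CPM beside 0.598, 0.405 and 0.698 CPM in NC. All day-3 libraries were above all NC libraries in both genes and in 22 of the 35 members (20.8% of all genes). Leaving out any 1 of the day-3 libraries, or NC replicate 2 or 3, gave 0 members called, and over all single libraries left out the number was 0 to 7. Genes called in all were 2349, 2211 and 2481 without day-3 replicates 1, 2 and 3. They were 2109 and 2182 without NC replicates 2 and 3, against 3303 with every library. Without the libraries apart 6 were called higher: Mki67, Ccna2, Bub1, Bub1b, Kif23 and Ube2c. That was 17.1% of the members, in a fit that called 1946 of 17179 genes higher. Kif23, not called on day 7, was at 2.24, 2.76 and 2.19 CPM on day 3 beside 1.26, 0.374 and 0.571 CPM in NC. The largest changes were Cdc25c (37 counts against 3 in NC, a ratio of 9.9 with an exact counting interval of 3.14 to 50.2), Bub1 (2.37) and Ndc80 (2.22), and the smallest Nek2 (-0.31), Birc5 (-0.32) and Ect2 (-0.65). Immune cell markers were also higher on day 3: 13 of 15 Kupffer cell and macrophage markers and 11 of 12 neutrophil markers rose, with summed levels of 866 to 1054 CPM for the former against 252 to 372 CPM in NC at ZT21. Their part in the result was not tested.

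On day 5 the number called was 0 (2 higher at an unadjusted p under 0.05, against 14.3% of genes, and 0 by DESeq2), and 5.91% of all genes were called higher. Replicate 3 held 6.71 CPM of Cdc20 against 0.481 and 0.36 CPM in replicates 1 and 2, and 5.94 CPM of Mki67 against 2.83 and 2.41 CPM. The largest changes were in Cdc25c (39 counts against 3 in NC, a ratio of 11.4 with an exact counting interval of 3.61 to 57.5), Ttk (2.17) and Cdc20 (1.90) and the smallest in Kif11 (-0.15), Nek2 (-0.16) and Birc5 (-1.08). On day 7, in this fit of ZT21 libraries, 27 members rose (background 5.71%), and the number was 0 without the 2 libraries apart of this group, 0 without LPS replicate 1 and 2 without LPS replicate 3. Dropping NC replicate 1, 2 or 3 left 16, 0 or 3, in fits that called 1020, 196 and 456 genes in all, against 1516 with every library. Without LPS replicate 1 or 3 the genes called in all were 164 and 192. The member medians of these fits were 3.54, 2.86, 3.20, 2.77 and 2.87, against 3.24.

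On days 9 and 11, after the 7 days of LPS, the summed level of the members lay within the range of the NC libraries. On day 9, 0 members were called (1 lower at an unadjusted p under 0.05, against 4.81% of genes, and 0 by DESeq2), and on day 11, 0 (2 lower, against 3.9%, and 0 by DESeq2), with 0.286% and 0.193% of all genes called lower. The median log2 change against NC was -0.09 on day 9 and -0.25 on day 11. Ccnb1 was at 0.252, 0.184 and 0.127 CPM on day 9 and 0.0929, 0.109 and 0 CPM on day 11, below 0.629, 0.28 and 0.508 CPM in NC with no overlap, and changed by -1.32 ± 0.79 and -2.76 ± 0.93 (adjusted p = 0.626 and 0.35). Cenpe (-2.60) and Aurkb (-1.81) had the other lowest values on day 9.

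The steps between successive days of the LPS arm do not use NC. From day 3 to day 5 the number called was 0 (background 2.72% lower), with 1 lower at an unadjusted p under 0.05 (9.48% of genes) and 0 by DESeq2. From day 5 to day 7, 11 members rose (background 5.2%), led by Gtse1 (3.49 ± 0.70, adjusted p = 0.00649), Bub1 (2.80) and Aurkb (2.80), and 1 passed without either of day-7 replicates 1 and 3 or of day-5 replicates 1 and 2, 30 without day-7 replicate 2 or day-5 replicate 3, and 0 without the libraries apart (median -0.13). The fits that left 1 called 761, 794, 542 and 553 genes in all, with member medians of 1.80, 1.955, 1.88 and 1.79. The fits that gave 30 called 2392 and 2140 genes, with medians of 2.71 and 3.39. From day 7 to day 9, 24 of 35 fell (background 4.09%) and all 35 had a negative change, with a median of -3.15 (49.7% of all genes were positive). Cenpe fell by 5.22 (adjusted p = 0.00951), from 2.73, 0.522 and 2.92 CPM to 0.158, 0 and 0 CPM (5, 0 and 0 counts), and the fitted change was -9.15 without day 9 replicate 1, so its size is poorly fixed too. Aurkb fell by 5.13 (adjusted p = 0.00951), from 11.3, 1.53 and 9.13 CPM to 0, 0.367 and 0.253 CPM, and Bub1 by 4.95 (adjusted p = 0.011). In Cenpe and Aurkb all day-9 libraries lay below all day-7 libraries, as in 22 of the 35 members (11.1% of all genes). Kif23 (-1.51), Cenpa (-1.02) and Mybl2 (-0.97) changed least and did not pass. With only replicate 2 of LPS day 7 kept, the median was -0.81 and 0 passed, in a fit that takes the spread of the lone library from the other groups and called 1 of 17179 genes. The number was also 0 without LPS day 7 replicate 1 and 0 without day 9 replicate 2, 1 without day 9 replicate 1, 4 without LPS day 7 replicate 3 and 13 without day 9 replicate 3. In that order these fits called 1, 7, 9, 82 and 1010 genes in all, against 1084 with every library. The member medians stayed at -2.71, -3.31, -3.26, -2.96 and -3.14. From day 9 to day 11 it was 0 (background 0.0124% higher), with 1 higher at an unadjusted p under 0.05 (2.82% of genes) and 0 by DESeq2.

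Genes near the members in the cell cycle were read from lists made beside them. Of 58 other mitotic genes 20 rose in the averaged effect and 41 at ZT21, with medians of 0.80 and 2.85, against 5.53% and 5.52% of all genes called higher. Without the 4 libraries apart 1 (Cenpm) and 0 were called, with medians of 0.24 and 0.30. Among them were Cenpm, of the centromere (1.10 ± 0.22 averaged, adjusted p = 0.0032), and at ZT21 Mad2l1, of the spindle checkpoint (2.24 ± 0.46, adjusted p = 0.00528), and the condensin genes Ncaph (3.49) and Smc4 (1.44). Of 42 G1/S and DNA replication genes 18 rose in the averaged effect and 38 at ZT21, with medians of 0.56 and 2.43, and without the 4 libraries the medians were 0.16 and 0.42 and 0 were called at ZT21. Examples at ZT21 are E2f1, a driver of S phase (2.31 ± 0.37, adjusted p = 0.0018), the sliding clamp gene Pcna (1.80) and the licensing factor gene Cdt1 (3.26). From day 7 to day 9, 36 of the 58 and 35 of the 42 fell (background 4.09%), and without the libraries apart 0 of either list. At ZT21 and from day 7 to day 9 these reduced fits have 1 LPS library on day 7.

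Inhibitors and brakes of the cycle are a list of mixed roles. Of 23 tested, 3 rose in the averaged effect (background 5.53%): Cdkn2c, an inhibitor of Cdk4 and Cdk6 (0.63 ± 0.14, adjusted p = 0.00735), Cdkn1c (0.50) and the pocket protein gene Rbl1 (0.61). Rb1, the retinoblastoma protein gene, fell by 0.24 (adjusted p = 0.0316). Cdkn1a (p21) stood at 0.69 ± 0.25 and did not pass (adjusted p = 0.079). The others, none of which passed, were E2f8 (-0.43), Btg2 (0.51), Lin9 (0.29), Cdkn2d (0.30), Pkmyt1 (0.55), Mdm2 (0.11), Lin52 (-0.14), Gadd45b (0.42), Cdkn2b (0.67), Ccng1 (0.09), Rbl2 (-0.08), Cdkn1b (-0.08), Trp53 (0.06), Wee1 (0.15), Lin37 (-0.05), Gadd45a (0.08), E2f7 (-0.07) and Lin54 (-0.00). At ZT21, 7 of the 23 rose (background 5.52%): Cdkn2c (1.83), the stress gene Gadd45a (2.41), the Cdk1-inhibiting kinase genes Pkmyt1 (2.94) and Wee1 (1.42), Rbl1 (2.10) and the MuvB genes Lin9 (1.35) and Lin54 (0.80). Without the 4 libraries 0 of the 23 were called in either comparison, and Cdkn2c stood at 0.31 and Rb1 at -0.23 in the averaged effect.

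Wee1 encodes a kinase that holds Cdk1 inactive before mitosis. It stood at 8.90 ± 0.76 CPM (SD, n = 3) in NC at ZT21, at 1.85 ± 1.13 CPM on day 3, 4.45 ± 0.762 on day 5, 23.6 ± 9.87 on day 7, 7.33 ± 0.727 on day 9 and 7.50 ± 2.39 on day 11. It fell by 2.27 on day 3 (adjusted p = 0.00111), with E2f8, a repressor of E2F targets (-1.82, adjusted p = 0.0103), while Trp53 rose by 0.54 (adjusted p = 0.00218). Wee1 is a clock-controlled gene, and in NC it ranged from 3.88 ± 0.596 CPM at ZT5 to 19.0 ± 0.901 CPM at ZT17, beside which the day-3 mean was lower than at any NC time of day.

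Marker lists of other liver cells were read beside the member sums. In the averaged effect 5.53% of all genes were called higher. Of the markers tested, 8 of 11 for neutrophils, 5 of 11 for B and plasma cells and 4 of 11 for sinusoidal endothelium rose. So did 3 of 6 for megakaryocytes and platelets, 2 of 9 for erythroid precursors and 2 of 15 for Kupffer cells and macrophages. For T and NK cells 1 of 13 rose, for cholangiocytes 1 of 6, for stellate cells 0 of 10 and for hepatocytes 0 of 15. Without the 4 libraries the median log2 change was 1.99 for neutrophil markers (3.19 with them) and 0.41 for megakaryocyte and platelet markers (0.68 with them). For the other lists it ran from -0.13 (B and plasma cells, 0.08 with them) to 0.27 (erythroid precursors, 0.03 with them). For B and plasma cells the median was small either way, so it does not show whether the called markers kept their rise. In LPS ZT5 replicate 3 the 13 neutrophil markers summed to 4.28 CPM and the 15 Kupffer cell and macrophage markers to 327 CPM. Over the NC libraries these sums ran from 2.93 to 10.7 CPM and from 228 to 528 CPM. NC ZT9 replicate 1, itself 1 of the libraries that set these ranges, stood at 4.63 and 362 CPM. In LPS ZT21 replicates 1 and 3 the same lists summed to 7.23 and 28.4 CPM and to 418 and 421 CPM. LPS ZT1 replicate 2 had the highest neutrophil sum (255 CPM) and a Kupffer cell sum of 984 CPM, and a member sum of only 42.1 CPM. In LPS ZT13 replicate 2 the neutrophil sum was 38.4 CPM and that of 10 stellate cell markers 838 CPM, against 178 to 397 CPM in NC, and their part in the member levels there was not tested. Of the erythroid precursor markers Gata1, Rhag, Hemgn and Epb42 were at 0 in 39, 44, 40 and 34 of the 48 libraries, while Alas2 (median 102 CPM in NC) and Klf1 (2.88 CPM) were at 0 in none. Of the neutrophil markers Ly6g was at 0 in 39 libraries, and Prtn3 (1.10 CPM) and Csf3r (2.39 CPM) in none. Hepatocyte markers were present in every library, led by Alb (albumin, median 71913 CPM in NC), and 4 of 15 fell at ZT21, 0 without the libraries apart.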

How the data were processed

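Liver RNA of 48 libraries was analysed. Per the labels' protocols, mRNA was selected with oligo(dT), libraries kept strand, and they were sequenced in pairs. The deposited table holds whole-number gene counts made by the authors. Per the submitters' processing notes, the build was GRCm38 and the tools included STAR 2.5.2b, StringTie 2.2.1 and DESeq2 1.38.1, with no role stated. Neither the counting tool nor its strand setting is given in the sources used. No count column was left out.

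Counts were tested with edgeR 4.0.16 (R 4.3.3, limma 3.58.1): filterByExpr by group, TMM scaling, a robust quasi-likelihood fit of the 12 groups of day 7 (24 residual degrees of freedom) and another of the 6 groups of ZT21 (12), with Benjamini-Hochberg adjustment over all genes tested at 0.05. The scripts were tested on simulated counts. CPM values were scaled with TMM factors. The alternatives were DESeq2 1.42.0, RLE scaling, no filter, a replicate block, all 48 libraries in 1 fit, only the 6 compared libraries, each library left out, and the 4 libraries apart left out, the last of which was added for the other gene and marker lists after their values were seen. Exact counting intervals are 95% intervals and cover counting error only. Figures were drawn with matplotlib 3.10.9.

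The 35 members, the other gene lists and the marker lists were chosen with earlier results of these data known. By the rule for named genes, all members may be named, with values by library or range for a core set of 12 and for the 3 largest and 3 smallest changes of a comparison, all brakes of the cycle, and up to 6 called genes of each other list. Motifs were searched in RefSeq promoters of GRCm38.p6, and positions came from GENCODE M21.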

Additional observations from a re-analysis of the deposited data

Results flagged for a closer look

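The LPS effect on Anln passed the test of a difference between times of day, the interaction test (edgeR's quasi-likelihood test, adjusted p = 0.0441). It was the only member called, against 1.7% of all genes, and the number of members called was 0 without the 4 libraries apart, with no filter on low counts, with a replicate block and in most fits with 1 library left out. Its effect ranged from -0.51 at ZT9 to 3.25 at ZT21.

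For 8 members all 3 LPS libraries lay above all 3 NC libraries on one day at ZT21 and below them on another. Of all genes, 20.8%, 17.4% and 12.7% lay above in this way on days 3, 5 and 7, and 9.02% and 8.17% below on days 9 and 11. Of the members, 62.9%, 5.71% and 60% lay above on days 3, 5 and 7, and 14.3% and 17.1% below on days 9 and 11. The share of all genes that did both was not counted, so the 8 members have no background to be judged against. Ccnb1 had log2 changes against NC of 1.39 on day 3, 2.98 on day 7, -1.32 on day 9 and -2.76 on day 11. Bub1 had changes of 2.37, 0.975 and 3.77 on days 3, 5 and 7 and -2.53 on day 11, where it had 2 counts in all against 14 in NC (ratio 0.151, exact counting interval 0.0167 to 0.658). Cenpe had changes of 1.74 and 2.61 on days 3 and 7 and -2.6 on day 9, and Kif11 of 0.546 and 2.18 on days 3 and 7 and -0.633 on day 9. Aurkb had 3.32 on day 7 and -1.81 on day 9. Ccnb2 had 2.29 on day 7 and -0.937 on day 11, Cdk1 2.66 and -0.558, and Aurka 2.67 and -0.373. The day-7 values rest on replicates 1 and 3. All these comparisons share the 3 NC libraries. The difference between day 9 and day 7 was tested as a step between days, and the other differences were not tested.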

How the results depend on the processing

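RLE scaling kept the side of the threshold for all 140 single-gene results compared (the members in the averaged effect, at ZT21, on day 3 against NC and from day 7 to day 9). Without the 4 libraries apart the members called numbered 1 in the averaged effect, 0 at ZT21, 0 for the interaction, 13 and 12 for time of day in NC and LPS, 6, 1 and 0 on days 3, 5 and 7 against NC, and 0 for both steps into and out of day 7. DESeq2 called 1 at ZT5, 1 at ZT13, 15 for the interaction, 9 for time of day in NC, 7 on day 3 against NC and 24 from day 5 to day 7. With no filter on low counts the numbers were 0 for the interaction, 10 for time of day in LPS, 0 on day 3, 17 on day 7 against NC and 6 from day 5 to day 7. With only the 6 compared libraries they were 2 at ZT5, 1 at ZT17, 0 at ZT21, 12 on day 3, 0 on day 7 against NC and 0 for the steps into and out of day 7. With all 48 libraries in 1 fit it was 17 from day 5 to day 7. The cause was not tested. With single libraries left out the lowest and highest numbers were 8 and 30 averaged, 2 and 33 at ZT21, 0 and 0 at each other ZT, 0 and 12 for the interaction, 1 and 9 for time of day in NC, 2 and 28 in LPS, 0 and 7 on day 3, 0 and 1 on day 5, 0 and 33 on day 7, 0 and 0 on days 9 and 11 against NC, 0 and 2 from day 3 to 5, 1 and 30 from day 5 to 7, 0 and 34 from day 7 to 9 and 0 and 0 from day 9 to 11. Signs turned without the 4 libraries for Kif23 averaged (-0.77), for Birc5 (-0.68), Kif23 (-1.57), Nusap1 (-0.47) and Ect2 (-0.0759) at ZT21, and from day 7 to day 9 for Bub1b (0.0567), Plk1 (0.19), Kif23 (1.02), Cenpa (0.0355) and Ect2 (0.46). With single libraries left out they turned for Kif23 averaged (-0.15 to 0.23) and on day 3 against NC for Aurka (-0.42 to 0.10), Nek2 (-0.58 to 0.39) and Ect2 (-1.02 to 0.0626).

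Replicate numbers did not pair the libraries: 15 of 198 same-numbered pairs of day 7 and 2 of 45 at ZT21 correlated above 0.1 in their deviations from the group means, and 13 of 36 and 9 of 18 libraries correlated best with their own number. With a replicate block 17 members were called averaged, 29 at ZT21, 0 for the interaction, 3 and 15 for time of day in NC and LPS, 5 and 23 on days 3 and 7 against NC, 10 from day 5 to day 7 and 24 from day 7 to day 9, and 0 elsewhere. At 27.5 to 52.7 reads per CPM, changes of members with a few reads per library, such as Cdc25c, Ttk and Bub1, were measured with wide errors.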
